A study of Mus musculus with 12 samples.

Results

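The SOX2+-only regions at gene ends are 260 stretches of open chromatin, out of 44242 merged regions, that were called as peaks in SOX2+ medulloblastoma cells and in no library of SOX2- cells from the same tumour type. Peaks of all 12 lists were merged where they overlapped by 1 bp or more. A region was kept when it held a peak in at least 3 of the 4 SOX2+ libraries and in 0 of the 4 SOX2- libraries, and when its midpoint lay within 2 kb of either end of a protein-coding gene. The members were thus chosen by the SOX2+ and SOX2- peak calls themselves, and their presence in one sort and absence from the other is a description and carries no test. Of the 13927 merged regions at gene ends, 1.87% met the rule, against 5.13% of the 30315 regions away from gene ends. The count depended on single libraries: without SOX2- replicates 1 to 4 in turn it was 260, 468, 294 and 366. Without SOX2+ replicates 1 to 4 in turn it was 79, 231, 88 and 69. In those 4 cases all of the other 3 SOX2+ libraries were required, which is a stricter rule.

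The material was SHH medulloblastoma, a hedgehog-driven tumour of the cerebellum, taken at endpoint from untreated Ptch1+/- mice, a genotype that every group carried. Cells were sorted by eGFP into SOX2+ (4 libraries, labelled stem-like by the submitters) and SOX2- (4 libraries, the tumour bulk), and SOX2+ cells were sorted further by RFP into cycling MKI67+ (2 libraries) and non-cycling MKI67- cells (2 libraries). Each reaction held 35000 to 50000 cells, the sources used here do not give the alleles behind the reporters or the ages of the mice, and nothing states that replicates came from separate animals, so the spread between libraries may be technical. In a bulk library, more cells with an open region and a more open region per cell cannot be told apart.

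ATAC-seq reads where a transposase can enter DNA, which happens mostly at promoters and enhancers that are free of tightly packed nucleosomes. Promoters of broadly used genes usually lie in CpG islands, stretches rich in the dinucleotide CG, and are open in most cell types, whereas promoters of cell-type genes are more often poor in CG. SOX2 is a transcription factor of neural stem and glial progenitor cells that binds a short A/T-rich motif, and in SHH medulloblastoma SOX2+ cells are known as a small, slowly dividing compartment.

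Peak numbers differed widely between lists, from 7009 to 26206 in the SOX2- libraries, from 9377 to 25272 in the SOX2+ libraries, and from 17615 to 24694 in the MKI67-sorted libraries. Read depth is unknown, so a region can be absent from a short list because its signal fell below the calling threshold there. Peaks with Sox2 as the nearest gene numbered 5, 2, 6 and 4 in the SOX2+ libraries and 0, 1, 1 and 1 in the SOX2- libraries, in replicate order, so the sorts did not overlap at the gene they were sorted on. Those at Mki67 numbered 2 and 1 in the MKI67- libraries and 2 and 5 in the MKI67+ libraries, which overlap.

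Of the 260 members, 108 covered at least 150 bases of a 300-base promoter window in the RefSeq table for GRCm38.p6 (mm10), and the upstream 250 bases of 6 of these promoters are printed to show the range of base composition among members. Capitals mark each CG. Sox21 (a SOX-family repressor of progenitors, chr14:118237031-118237280, minus strand), Dll1 (a Notch ligand, chr17:15375824-15376073, minus strand) and Mt1 (a metal-binding protein, chr8:94178839-94179088, plus strand) have CG-rich promoters, while Fabp7 (the radial-glial lipid carrier, chr10:57784673-57784922, plus strand), S100b (a calcium-binding protein of astrocytes, chr10:76253586-76253835, plus strand) and Cmtm5 (a membrane protein of myelinating glia, chr14:54936220-54936469, plus strand) have CG-poor ones.
Sox21: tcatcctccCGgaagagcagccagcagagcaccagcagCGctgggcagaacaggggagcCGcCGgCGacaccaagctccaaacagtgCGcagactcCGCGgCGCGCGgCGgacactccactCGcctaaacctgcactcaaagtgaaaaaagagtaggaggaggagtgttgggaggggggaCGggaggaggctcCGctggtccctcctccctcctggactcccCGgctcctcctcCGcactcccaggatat
Dll1: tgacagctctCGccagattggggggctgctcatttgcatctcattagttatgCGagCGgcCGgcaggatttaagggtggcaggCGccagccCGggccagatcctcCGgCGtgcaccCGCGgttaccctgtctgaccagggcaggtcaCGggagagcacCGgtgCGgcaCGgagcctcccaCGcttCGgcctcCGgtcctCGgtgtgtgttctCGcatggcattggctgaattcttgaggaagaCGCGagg
Mt1: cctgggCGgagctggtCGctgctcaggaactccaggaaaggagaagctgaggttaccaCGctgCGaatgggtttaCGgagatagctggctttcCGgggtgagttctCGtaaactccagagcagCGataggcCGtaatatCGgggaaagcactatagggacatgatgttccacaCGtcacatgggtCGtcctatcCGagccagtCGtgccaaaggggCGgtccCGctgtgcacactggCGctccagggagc
Fabp7: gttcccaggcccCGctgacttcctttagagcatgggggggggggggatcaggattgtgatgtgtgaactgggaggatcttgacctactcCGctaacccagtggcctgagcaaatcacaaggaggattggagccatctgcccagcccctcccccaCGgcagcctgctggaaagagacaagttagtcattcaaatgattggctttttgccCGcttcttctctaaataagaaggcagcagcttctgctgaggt
S100b: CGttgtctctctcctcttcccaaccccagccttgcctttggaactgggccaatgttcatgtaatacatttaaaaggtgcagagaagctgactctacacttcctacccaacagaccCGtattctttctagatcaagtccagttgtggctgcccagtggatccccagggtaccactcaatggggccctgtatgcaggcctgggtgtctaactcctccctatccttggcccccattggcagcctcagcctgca
Cmtm5: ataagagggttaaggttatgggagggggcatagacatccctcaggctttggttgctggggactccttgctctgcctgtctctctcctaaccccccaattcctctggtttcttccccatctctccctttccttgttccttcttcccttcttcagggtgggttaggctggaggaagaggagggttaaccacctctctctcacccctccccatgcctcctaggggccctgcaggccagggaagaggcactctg
The first 3 stretches hold 17, 21 and 17 CG dinucleotides, and the last 3 hold 4, 2 and 0.

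The median CpG ratio was lower under the members than under regions open in both sorts. The CpG ratio, the number of CG dinucleotides over the number that the C and G content predicts, had a median of 0.674 over the 108 member promoters. It was 0.845 over the 3750 promoters under regions with a peak in all 8 SOX2-sorted libraries, 0.739 over 181 promoters under regions listed in at least 3 SOX2+ libraries and in exactly 1 SOX2- library, and 0.573 over all 21012 promoters of protein-coding genes in the table. A ratio of at least 0.6 was found in 64 of the 108 member promoters (59.3%), against 90.4%, 76.2% and 48.1% of those 3 sets. Over the 14 promoters under regions with the opposite pattern, a peak in at least 3 SOX2- and 0 SOX2+ libraries, the median was lower still, at 0.431, with 28.6% at or above 0.6. Member promoters thus lay between the promoters open everywhere and the genome's average, and regions lost from the rule by a single SOX2- peak lay between the members and the promoters open everywhere. The median GC content differed less, at 62.0% for members and 64.3% for the promoters open in all 8 libraries.

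**Figure D1:**
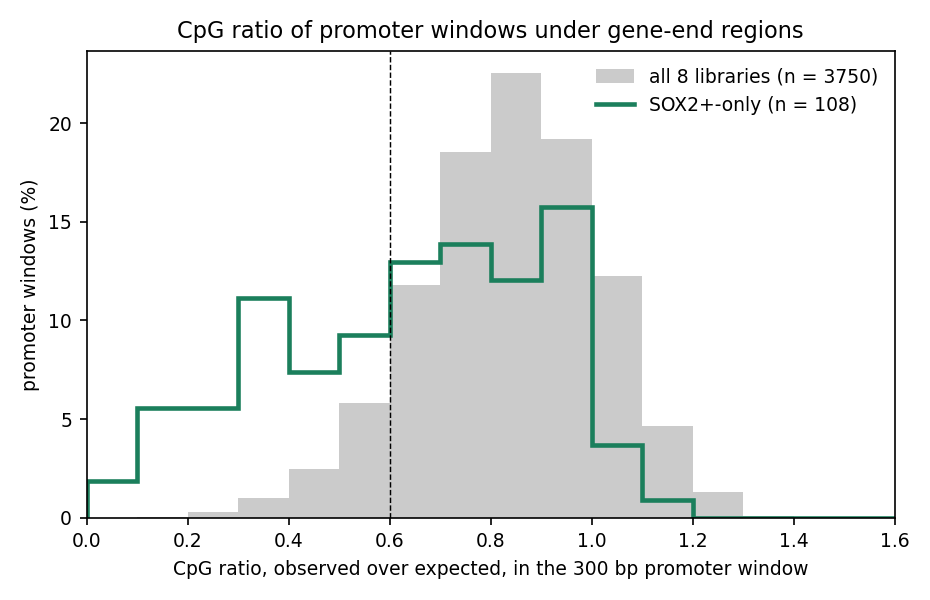
The CpG ratio (x axis, observed over expected CG in the 300 bp window) is shown as the percentage of promoter windows per 0.1 of ratio (y axis), for the 108 windows under SOX2+-only regions (green line) and the 3750 under regions listed in all 8 SOX2-sorted libraries (grey). The dashed line stands at 0.6: 59.3% of the green and 90.4% of the grey distribution lie at or above it.

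The MKI67 libraries entered the merging of peaks but not the SOX2+ against SOX2- choice, and CG-poor and CG-rich member promoters were compared in them. Of the 44 CG-poor member promoters (ratio under 0.6), 29 (65.9%) had a peak in all 4 MKI67 libraries, and of the 64 CG-rich ones 30 (46.9%) did, beside 58.7% of all gene-end regions. The members in the 2 sets had median score percentiles of 36.2 and 27.4, so the CG-poor set also ranked higher in the SOX2+ lists (the percentile is the share of a library's peaks with a lower score, averaged over the 4 SOX2+ lists with 0 where not listed).

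SOX-type motifs, ACAATG or ACAAAG on either strand, had a share among members between those of windows open in all 8 libraries and of all promoters. They occurred in 23 of the 108 member windows (21.3%), in 15.8% of windows open in all 8 libraries and in 25.2% of all promoter windows of 300 bases. Under regions with exactly 1 SOX2- library, 16.6% of 181 windows had one. At least 3 matches were found in 0.562% of all promoters and in 1 member, Hes5, the Notch target gene and repressor of neuronal differentiation (chr4:154960673-154960922, plus strand). Its upstream 250 bases are printed with those of Phldb1, a microtubule-anchoring protein gene (chr9:44735199-44735448, minus strand), the highest-ranked member with a match, and capitals mark the motif, which reads CATTGT or CTTTGT where it lies on the opposite strand.
Hes5: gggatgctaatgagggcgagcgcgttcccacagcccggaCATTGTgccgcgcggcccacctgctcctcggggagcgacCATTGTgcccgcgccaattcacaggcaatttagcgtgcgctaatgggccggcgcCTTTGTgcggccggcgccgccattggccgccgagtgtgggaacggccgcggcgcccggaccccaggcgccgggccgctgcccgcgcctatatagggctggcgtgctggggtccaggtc
Phldb1: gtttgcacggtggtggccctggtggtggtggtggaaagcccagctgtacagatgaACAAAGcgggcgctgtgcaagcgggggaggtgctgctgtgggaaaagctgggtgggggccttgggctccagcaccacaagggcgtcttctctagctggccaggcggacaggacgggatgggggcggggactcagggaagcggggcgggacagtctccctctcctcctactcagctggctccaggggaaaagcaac
Hes5 carries 3 matches in this stretch and Phldb1 carries 1. A match describes the letters and shows no binding, and a window without one says nothing about SOX2.

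Other motifs were searched on both strands. GGGCGG, bound by SP and KLF factors and holding a CG itself, was in 63.9% of member windows, 78.7% of windows open in all 8 libraries and 46.6% of all promoters. CCGGAAG, the ETS motif, was in 10.2%, 21.8% and 11.7%, and GCGCATGC, the NRF1 motif, was in 0 of 108 member windows, 7.36% and 3.54%. The CCAAT box was in 30.6%, 46.7% and 38.5%. An E-box of the kind OLIG factors bind, CAGATG or CATATG, was in 16.7%, 9.09% and 16.9%, with CATATG in 0 of 108 member windows, and TTGGCA, the core of the NFI motif, which can share bases with a CCAAT box on the opposite strand, was in 19.4%, 10.3% and 13.1%. Over the 181 promoters under regions with exactly 1 SOX2- library, the CCAAT box was in 29.8%, the ETS motif in 12.7% and NRF1 in 6.08%. The OLIG-type E-box was in 10.5% of them and the NFI core in 9.94%. The 60 regions with a peak in at least 3 SOX2- and 0 SOX2+ libraries covered 14 promoters. Of these the CCAAT box was in 28.6% and the NRF1 motif in 0. The OLIG-type E-box was in 21.4% of the 14 and the NFI core in 28.6%, both above the member shares. The CCAAT share was thus as low in both neighbouring sets as under the members.

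The strand of the nearest gene was known for 200 members, of which 156 (78.0%) lay at the gene's start and 44 (22.0%) at its far end. The far-end share was 10.5% over all gene-end regions, 10.5% for regions listed in exactly 1 SOX2- library and at least 3 SOX2+ libraries, and 0.745% for regions open in all 8 libraries, while the 60 regions with the opposite rule (at least 3 SOX2- and 0 SOX2+ libraries, 0.431% of gene-end regions) had 35.0%. Within 500 bp of a protein-coding start lay 119 of the 200 members (59.5%) and 96.2% of the regions open in all 8 libraries. Of the 44 far-end members, 5 were within 2 kb of any start in the table, and the others were at gene ends without a known promoter nearby.

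**Figure D2:**
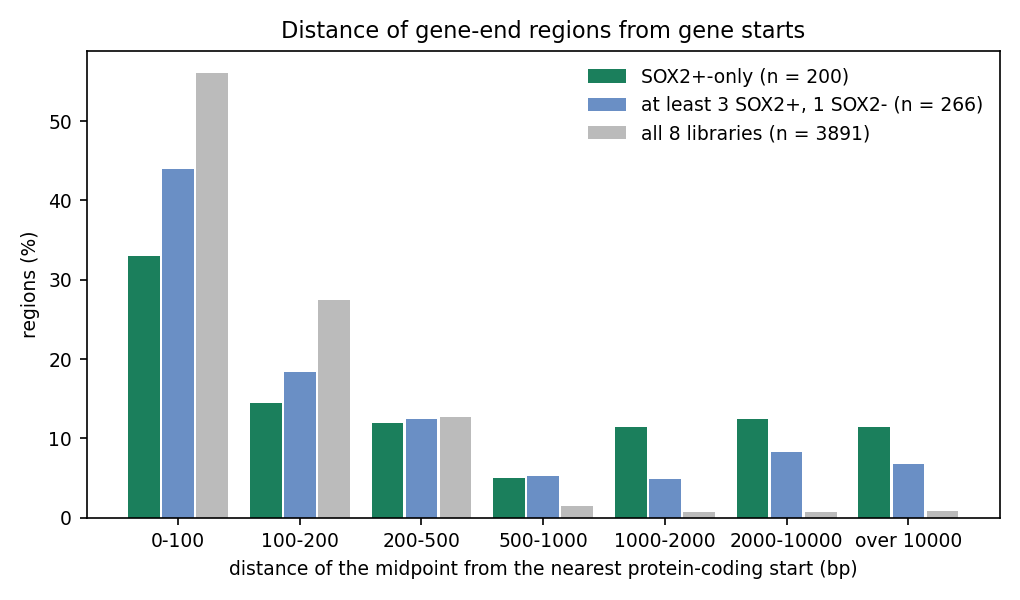
Percentage of gene-end regions (y axis) by the distance of their midpoint from the nearest protein-coding start (x axis, bp), for members (green), regions with at least 3 SOX2+ libraries and exactly 1 SOX2- library (blue) and regions listed in all 8 SOX2-sorted libraries (grey), where the strand of the nearest gene was known. 33.0% of members and 56.1% of the regions in all 8 libraries lay within 100 bp, and 12.5% and 0.694% lay between 2000 and 10000 bp.

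Far-end and start members both had shares in all 4 MKI67 libraries near the 51.2% of all members. All 4 SOX2+ libraries listed 17 of the 44 far-end members (38.6%) and 40 of the 156 at starts (25.6%), and all 4 MKI67 libraries listed 24 (54.5%) and 77 (49.4%), beside 58.7% of all gene-end regions. Their median score percentiles in the SOX2+ lists were 40.0 and 29.0. The 60 members whose strand is unknown had 12 listed by all 4 SOX2+ libraries and 32 by all 4 MKI67 libraries.

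Members were peaks of modest width and rank. Their median width was 524 bp (range 303 to 1212 bp), against 789 bp for regions open in all 8 libraries, 619 bp for all gene-end regions, 579 bp for regions with exactly 1 SOX2- library and 471.5 bp for the 60 regions with the opposite pattern. In the SOX2+ lists the members' median score percentiles were 35.3, 27.0, 31.4 and 50.7, in replicate order, and those of all gene-end regions were 64.2, 56.7, 66.9 and 68.5. Regions with exactly 1 SOX2- library had 35.3, 22.9, 31.0 and 49.1, so the low rank was not particular to the members. In the MKI67 lists the members' medians were 41.7 and 37.0 (MKI67-) and 32.0 and 45.3 (MKI67+), and those of all gene-end regions ranged from 64.1 to 70.3. In the top 10% of the SOX2+ lists lay 4, 0, 1 and 4 members (1.6%, 0%, 0.415% and 1.54% of those listed). Of all listed gene-end regions 15.9%, 12.8%, 17.5% and 18.3% lay there. Of the regions with exactly 1 SOX2- library 1, 0, 0 and 4 did, so this too was not particular to the members. The summits of a member in the SOX2+ lists spanned a median of 104 bp, and 125 of 260 members had summits within 100 bp of each other. The nearest SOX2- peak was a median of 13411 bp away, but it was under 500 bp away for 17 members, among them a region at Fzd8 (61 bp), the gene for a Wnt receptor.

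**Figure D3:**
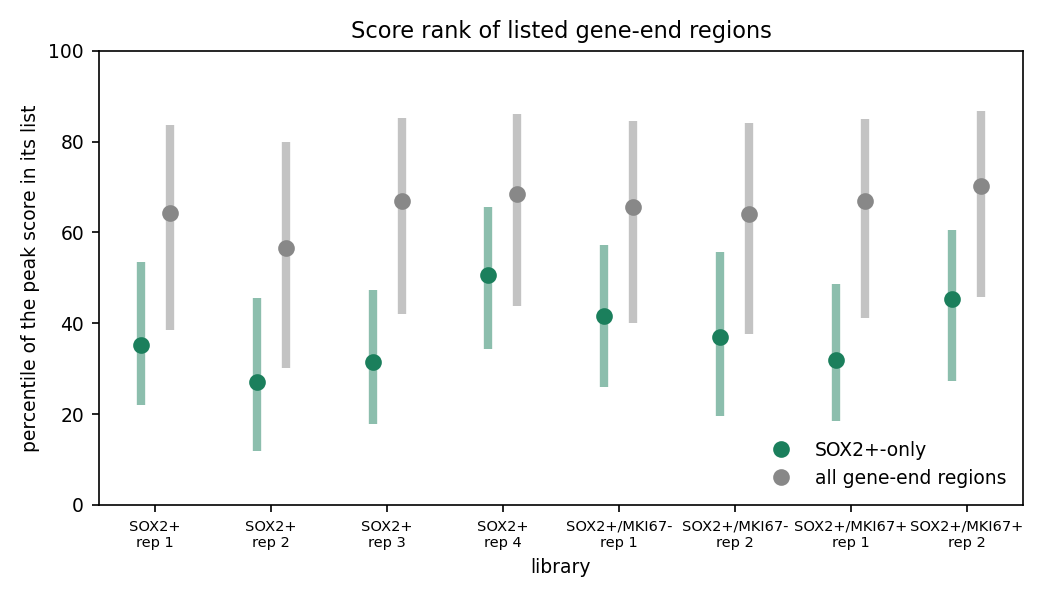
Percentile of the peak score within its own list (y axis, 100 is the highest) for members (green) and all gene-end regions (grey) in each of the 8 libraries of SOX2+ cells (x axis). Points are medians and bars the middle 50% of regions, and the member median is below the median of all gene-end regions in every library shown.

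Members had shares in the MKI67-sorted libraries near those of gene-end regions in general. The MKI67- libraries listed 207 and 203 of the 260 members and the MKI67+ libraries 172 and 231, which is 79.6%, 78.1%, 66.2% and 88.8%, beside 69.9%, 68.1%, 69.4% and 80.8% of all gene-end regions. Members were above that share in 3 libraries and below it in MKI67+ replicate 1. All 4 listed 133 members (51.2%; 54 to 236 when 1 of the 12 libraries was left out), 3 listed 60, 2 listed 43, 1 listed 15 and none listed 9, beside 58.7% of all gene-end regions in all 4 and 13.5% in none. Regions open in all 8 SOX2-sorted libraries were in all 4 at 99.4%, and of the 60 regions with the opposite rule none was (0%). The regions with exactly 1 SOX2- library had 50.3% in all 4, beside 51.2% of the members. No test is given for these shares, since regions are not replicates and the MKI67 cells are themselves SOX2+.

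Members listed by all 4 SOX2+ libraries had a larger share in the MKI67 libraries than those listed by 3. These 69 members (0.495% of gene-end regions met that stricter form of the rule) were in all 4 MKI67 libraries in 54 cases (78.3%), and the 191 members listed by 3 SOX2+ libraries in 79 cases (41.4%). The missing library was SOX2+ replicate 2, the shortest SOX2+ list, for 162 of the 191, replicate 3 for 19 and replicate 1 for 10, and replicate 4, the longest list, missed none.

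Cycling and non-cycling SOX2+ cells did not differ detectably at the members. The share of members listed was 78.8% ± 1.09 (SD, n = 2) in MKI67- and 77.5% ± 16.0 (SD, n = 2) in MKI67+ libraries, a difference of -1.35 percentage points (two-sided exact permutation test over libraries, p = 1.0, where 2 against 2 libraries cannot go below 0.333). The MKI67+ libraries lay on both sides of the MKI67- libraries, the lower with 18738 peaks in its list and the higher with 24694. For the 60 regions with the opposite rule the shares were 3.33% ± 2.36 and 40.8% ± 8.25 (SD, n = 2 each), a difference of 37.5 points without overlap (exact permutation p = 0.333, the smallest possible). Leaving out MKI67+ replicate 1 turned the members' difference to 10.4 points.

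**Figure D4:**
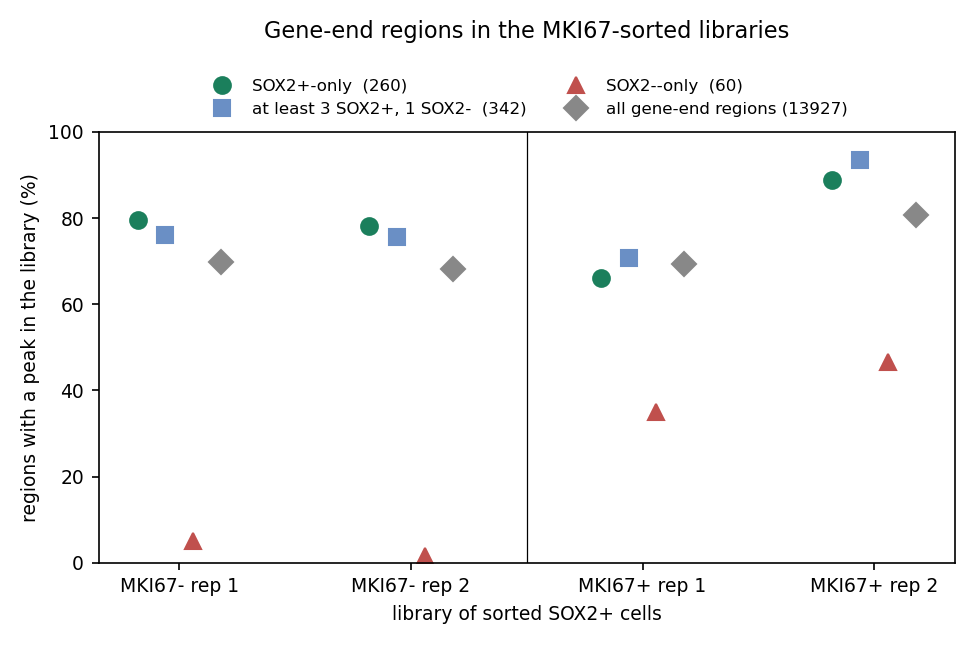
Percentage of gene-end regions with a peak (y axis) in each of the 4 libraries sorted by MKI67 (x axis), for members (green circles), regions with at least 3 SOX2+ libraries and exactly 1 SOX2- library (blue squares), regions with the opposite rule (red triangles) and all gene-end regions (grey diamonds). Members range from 66.2% to 88.8%, and the red triangles are at 5.0% and 1.67% in MKI67- and at 35.0% and 46.7% in MKI67+ libraries.

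Few members kept to 1 side of the MKI67 sort. The 2 members with a peak in both MKI67- and neither MKI67+ library (0.769%, beside 0.481% of gene-end regions) were at the start of Parp8, which encodes an ADP-ribosyltransferase, and at the start of Emp1, an epithelial membrane protein gene. The reverse pattern was found at 5 genes (1.92%, beside 2.62% of gene-end regions): Sntg1, a brain syntrophin gene, Fgf22, a synaptic growth factor gene, Ccl5, a chemokine gene, Slc25a20, the mitochondrial carnitine carrier gene, and 1 of the 2 members at Elovl6, a fatty acid elongase gene. All 7 were listed in 3 of the 4 SOX2+ libraries, with mean score percentiles from 7.6 (Elovl6) to 31.1 (Sntg1). Without MKI67+ replicate 2, 42 members had the MKI67- pattern, and without MKI67- replicate 1, 19 had the MKI67+ pattern.

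Peaks per gene were also compared between MKI67+ and MKI67- cells with limma across 14240 genes, of which 33 (0.232%) passed an adjusted p under 0.05. None of the 250 tested genes with a member passed, and 8 (3.2%) had an unadjusted p under 0.05, beside 663 genes (4.66%) in all. The smallest adjusted p of a member gene in limma was 0.497, for Aff1, a gene of the transcription elongation machinery, whose log2(peaks + 1) was higher in MKI67+ cells by 0.72 ± 0.16 (SE). On simulated data the test recovered 82 of 200 genes changed 8-fold and 1 of 200 changed 4-fold, so only large changes were detectable there. The changed genes had a mean of at least 1 peak per library, with Poisson noise around it. Genes with fewer peaks, among them member genes with a single region, were not changed in the simulation. What was detectable at those genes was thus not tested.

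The rule was also applied with 1 library left out, and the regions it chose were looked up in that library. With SOX2+ replicate 1, 3 or 4 left out, all of the other 3 SOX2+ libraries required and 0 SOX2- libraries allowed, the left-out library listed 69 of 79 (87.3%), 69 of 88 (78.4%) and 69 of 69 (100%) of the gene-end regions chosen. SOX2+ replicate 2 listed 69 of 231 (29.9%), less than its 47.2% of all gene-end regions. SOX2+ replicates 1, 3 and 4 listed 67.5%, 69.1% and 82.5% of all gene-end regions. With a SOX2- library left out, replicate 1 listed 0 of 260, replicate 2 listed 205 of 465 (44.1%), replicate 3 listed 33 of 293 (11.3%) and replicate 4 listed 104 of 364 (28.6%). Of all gene-end regions these SOX2- libraries listed 38.8%, 76.2%, 57.7% and 71.3%, in replicate order. The absence from SOX2- cells thus held least well in replicates 2 and 4, the longest SOX2- lists. Away from gene ends the same left-out SOX2- libraries listed 0.0643%, 18.9%, 1.21% and 10.9% of the regions chosen.

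The highest-ranked members lay at a mixed set of genes. The first by mean score percentile was at the far end of Tedc1, a gene for a centriole protein (chr12:113163405-113164307, inside the gene and 1603 bp from its end), with percentiles of 90.2, 76.8, 92.8 and 89.1 in the SOX2+ lists and 83.4, 91.8, 90.5 and 84.5 in the MKI67- and then MKI67+ lists. The region at the far end of Bag1, a chaperone cofactor gene (chr4:40936264-40936942), followed with 77.7, 84.1, 86.3 and 94.9 in the SOX2+ lists and 62.7 to 91.0 in the MKI67 lists. Scrg1, a gene for a small secreted protein of glia, had its member 65 bp from a gene end, at 95.0, 73.3, 83.0 and 84.3. These 3 stood at or above 62.7 in all 8 lists of SOX2+ cells, with the authors' fold over local background between 4.61 and 8.30. Skap2, an adaptor gene of Src kinases, had percentiles of 94.6, 68.8, 33.1 and 96.7 in the SOX2+ lists, and was thus high in 3 of them and low in replicate 3, but stood at 90.3 to 93.8 in all 4 MKI67 lists. The other members among the first 10 were at 1700034J05Rik, an uncharacterised gene, at Col9a2, a collagen chain gene, at the far end of Elovl6, at Spg7, a mitochondrial protease gene, at Abhd2, a hydrolase gene, and at Phldb1, with means from 67.6 to 83.4. Of the first 25 members 10 lay at far ends, 9 at starts and 6 at genes of unknown strand. All 25 were listed in 4 of 4 SOX2+ libraries, which the ranking favours, and 23 of them were in all 4 MKI67 libraries, with Plekhs1 and Dscam, a neuronal adhesion gene, missing from MKI67+ replicate 1.

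Of these 25 members, those at Gpr17 and Arc belong to a gene list, and Neu4, Cmtm5, Hepacam and Mt1 were picked by hand as examples. Gpr17, a receptor of differentiating oligodendrocyte precursors, had percentiles of 48.0, 55.1, 60.7 and 87.3 in the SOX2+ lists and 85.0, 80.4, 89.9 and 68.6 in the MKI67- and MKI67+ lists. Neu4, a brain sialidase gene, stood at 53.4 to 78.7 in the SOX2+ lists, Cmtm5 at 28.8 to 76.8 and Hepacam, a glial cell adhesion gene, at 43.4 to 73.6, all at their starts. Mt1 had 69.4, 50.2, 36.1 and 75.4, and Arc, a neuronal activity gene, had 63.8, 45.7, 40.2 and 81.9. The lowest SOX2+ value was in replicate 2 or 3 for the last 5 genes and in replicate 1 for Gpr17.

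Of 20 stem and progenitor genes, 5 had a member (25.0%), beside 1.18% of all 21631 protein-coding genes. Some gene-end region was found at 18 of the 20, beside 11886 of all 21631 genes. The gene lists here and below were chosen with earlier results of these data known, so their shares are descriptions and carry no test. Among the genes with a member were Fabp7, Hes5, Sox21 and Nes, the gene for the intermediate filament nestin. Fabp7 had percentiles of 28.9, 0.7, 59.8 and 42.7 in the SOX2+ lists and 47.8, 55.2, 48.6 and 73.7 in the MKI67- and MKI67+ lists. It was listed in all 8 libraries of SOX2+ cells, at the edge of detection in SOX2+ replicate 2. Hes5 (36.5, 5.6, 42.0 and 68.0 in the SOX2+ lists) and Sox21 (54.4, 13.9, 40.9 and 41.3) were also listed in all 8, and also lowest in replicate 2. Nes had 14.8, 24.8 and 14.5 in SOX2+ replicates 2, 3 and 4 with a peak in 2 of the 4 MKI67 lists. These stem genes were thus members of middle or low rank.

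Glial lists held 2 genes each. The oligodendrocyte list of 20 genes had members at Gpr17 and Nkx2-2, a ventral progenitor factor whose percentiles were 52.5, 26.1 and 53.4 in SOX2+ replicates 1, 2 and 4. The astrocyte and Bergmann glia list of 18 genes had members at S100b (54.0, 57.8 and 64.8 in replicates 1, 3 and 4) and Id3, an inhibitor of differentiation induced by BMP signals (58.0, 14.5 and 29.4). The 20 granule neuron progenitor genes, all with some gene-end region, had none. For a list of this size that is near what the 1.18% over all genes gives. The neuronal list of 20 had 1, at the neurofilament gene Nefm (9.6, 18.8 and 48.2). Peaks at the oligodendrocyte list, counted per 10000 peaks of a library, ranged from 15.3 to 22.4 in SOX2+ and from 7.13 to 10.1 in SOX2- libraries, and those at the stem list from 18.1 to 22.4 and from 5.71 to 16.4. Those at the astrocyte and Bergmann glia list overlapped, with 11.7 to 18.3 in SOX2+ and 12.6 to 19.5 in SOX2- libraries, and those at the granule neuron list ranged from 8.53 to 19.4 and from 18.5 to 29.0. The share of such cells in each sort was not tested.

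Of the signalling lists, Notch and BMP had larger shares of genes with a member than the 1.18% of all protein-coding genes. Some gene-end region was found at 19 of the 23 Notch and 26 of the 30 BMP genes. Over all 21631 genes 11886 had one, a difference that these shares do not take into account. The Notch list of 23 genes had 2 (8.70%), at the ligand gene Dll1 (58.9, 34.1, 37.3 and 59.9 in the SOX2+ lists, and listed in all 4 MKI67 libraries) and at the target gene Hes5. The BMP and TGF-beta list of 30 genes had 4 (13.3%): the ligand gene Bmp7 (54.4, 31.4 and 69.3 in replicates 1, 3 and 4), the genes Nog and Grem1, whose secreted products block BMP, and Id3. Nog had 30.2, 17.9 and 26.4 and Grem1 24.2, 18.8 and 7.2 in the same replicates, and Grem1 was in only 1 of the 4 MKI67 libraries. The Wnt list of 31 genes had 1, Fzd8, with 2 members, and the immediate early list of 21 had Arc. The lists of hedgehog genes (18), cell cycle genes (27), cell cycle inhibitors (18), interferon and antigen presentation (19) and housekeeping genes (16) had none, which for lists of this size is near what the share over all genes gives.

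Lists for other cell types had a member at 1 gene, near the share of 1.18% over all protein-coding genes. None of 16 endothelial, 16 microglial, 14 lymphocyte and 14 ependymal genes had a member, but only 4, 4, 1 and 9 of them had any gene-end region. Of 14 fibroblast and meningeal genes Foxc1 had a member, listed in SOX2+ replicates 1, 3 and 4 (40.0, 33.1 and 21.3) and in 1 MKI67 library. Of the microglial genes, 11 of 16 had no peak in any library, Aif1, Cx3cr1 and Csf1r among them, and peaks at the list ranged from 1.53 to 3.17 per 10000 in SOX2+ and from 0 to 1.53 in SOX2- libraries. Of the lymphocyte genes, 10 of 14 had no peak in any library, with ranges of 1.07 to 2.37 and 0 to 1.91. The fibroblast list ranged from 0 to 9.10 and from 0 to 8.01, and the endothelial list from 6.40 to 10.1 and from 1.43 to 9.16.

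Gene families told by their symbols are read against the same 1.18% of all protein-coding genes. Solute carriers had members at 8 of 375 genes (2.13%), adhesion and other G protein-coupled receptor genes of the Gpr series at 4 of 102 (3.92%), among them Gpr162, Gpr17 and Gpr37l1, potassium channels at 1 of 94 (Kcnj10, the glial inward rectifier) and zinc finger protein genes at 1 of 457. No HOX gene (of 39) and no ribosomal protein gene (of 97) had a member, which is not a result about the members at these family sizes.

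**Figure D5:**
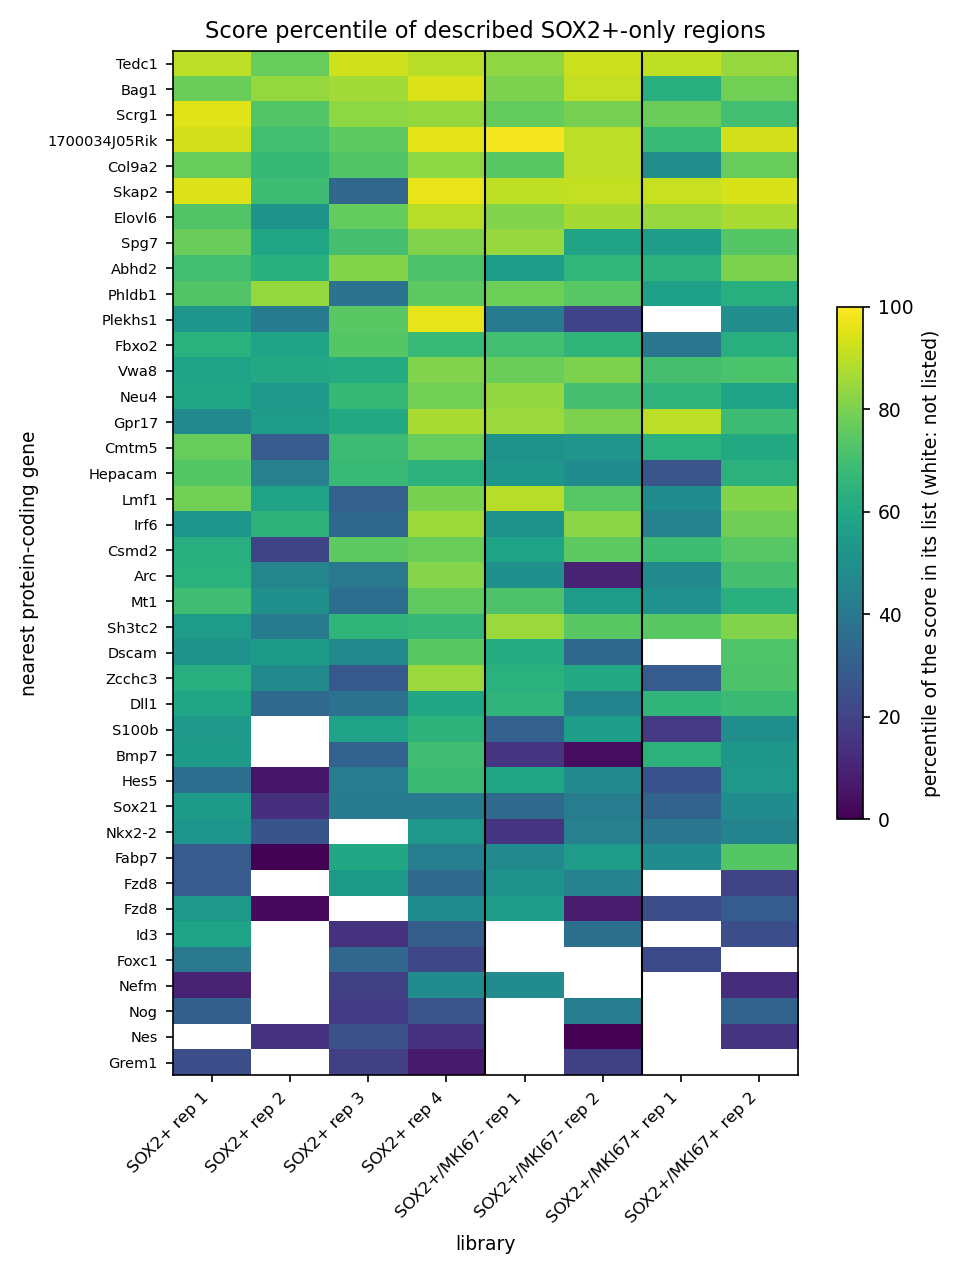
Score percentile within its list (colour, 0 to 100, white where not listed) of the 25 members with the highest mean percentile and of members at genes of the lists (rows, by nearest gene, ordered by mean percentile) in the 8 libraries of SOX2+ cells (columns). The upper rows are listed nearly throughout, with 2 white cells in MKI67+ replicate 1, and the lower rows have gaps, chiefly in SOX2+ replicate 2 and MKI67+ replicate 1.

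Genes with a member carried further SOX2+-only regions in a larger share than other genes. Of the 256 genes nearest to a member, 45 (17.6%) were also the nearest gene of a SOX2+-only region that was not a member. There were 57 such regions in sum, and 7.06% of 11630 other genes with a gene-end region had one. Dscam and Megf11, an engulfment receptor gene, had 3 more each. Regions with the opposite rule were near 7 of the 256 genes (2.73%) and 3.39% of the others. A gene-end region open in all 8 SOX2-sorted libraries was at 16 of the 256 genes (6.25%), against 40.2% of the others. The rule bears on this gap, since a member itself holds no SOX2- peak. A separate SOX2- peak can still lie at the same gene end, and how much of the gap the rule fixes was not tested. Gene length was not taken into account, nor was the number of merged regions per gene, with medians of 3 for genes with a member and 2 for the others.

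In 4 genes there were 2 members each: Elovl6, Fzd8, Gpm6a, a neuronal membrane glycoprotein gene, and 2810459M11Rik. At Elovl6 the far-end member was in all 8 libraries of SOX2+ cells (mean percentile 72.5) and the one near the start was in 3 SOX2+ and both MKI67+ libraries (7.6). At Gpm6a 1 member was in 4 SOX2+ and 3 MKI67 libraries and the other in 3 SOX2+ and 0 MKI67 libraries. At Fzd8 both were in 3 SOX2+ libraries, with mean percentiles of 29.5 and 26.1 and peaks in 3 and 4 MKI67 libraries. At 2810459M11Rik 1 was in 4 SOX2+ and 4 MKI67 libraries (21.6) and the other in 3 and 2 (8.0).

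Other regions lay close to the limits of the rule. Just inside the distance limit lay the members at Plce1 (1918 bp), 2810459M11Rik (1928 bp) and Elovl6 (1944 bp), and just outside lay SOX2+-only regions at Abcc4 (2009 bp) and Vwa8 (2037 bp). At gene ends, 395 regions had a peak in 2 SOX2+ and 0 SOX2- libraries, 257 in 3 SOX2+ and 1 SOX2- library and 85 in 4 SOX2+ and 1 SOX2- library, beside the 191 members with 3 and the 69 with 4 SOX2+ libraries. When every list was shortened to its 7009 highest-scoring peaks, 152 regions met the rule and 21 of them overlapped the 260 members. Those 21 members were at Neu4, Zcchc3, Elovl6, Bag1, Col9a2, Csmd2, Fbxo2, Skap2, 1700034J05Rik, Abhd2, Scrg1, Mt1, Spg7, Hepacam, Phldb1, Kremen1, Tedc1, Cmtm5, Arc, Lmf1 and Plekhs1. When peaks under the median score of each list were dropped, 160 regions met the rule and 35 members were kept, and 18 members were kept in both cases.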

How the data were processed

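Peak lists of 12 ATAC-seq libraries were analysed, deposited by the authors 1 per library. The submitters' processing notes name Bowtie2, MACS2 and the build mm10. The sources used here give no versions or settings and do not mention a shift of reads for the transposase. The score, fold ratio over local background, -log10 p-value and -log10 q-value of each peak are the authors', per the files' columns. They belong to 1 list each, so they were used only to rank peaks within it. The number of peaks per list stands in for depth.

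Peaks on chromosomes 1 to 19 and X were merged at 1 bp overlap. Gene ends are the ends of the RefSeq span (GRCm38.p6, 21631 protein-coding genes). Strand and promoter sequence came from the RefSeq promoter table (250 bases before and 50 after a start), whose start can lie inside the span, and the 60 members with no entry for their gene have no start or far end. Peaks were assigned to the nearest protein-coding gene within 100 kb, and log2(peaks + 1) per gene was fitted with limma 3.58.1 (R 4.3.3) over all 12 libraries and 4 groups, with log10 total peaks as covariate, where at least 2 libraries had a peak. It was tested on simulated data. All other values used Python 3.11.15.

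The members and gene lists were chosen with earlier results of these data known. Named are the 25 members with the highest mean percentile, all members at listed genes, up to 10 members on each side of the MKI67 sort, genes with 2 members and the 3 regions on each side of the distance limit. Genes of a family, Megf11, Aff1 and Kremen1 were named after their values were seen. Some regions that this rule would name are not reported here. Alternatives were other merging, distance, library and score limits, other filters and pseudocounts, the replicate number as a block, and leaving out each library.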

Additional observations from a re-analysis of the deposited data

Results flagged for a closer look

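SOX2+ replicate 2 stood apart from the other SOX2+ libraries in the number of members it listed. It listed 98 of the 260 members, and replicates 1, 3 and 4 listed 250, 241 and 260. The gap to the nearest library was 0.883 of the whole range, above Dixon's 95% critical value for 4 libraries. That value assumes libraries not used for selection, and chance passes it in about 1 group in 20. These peak calls chose the members, so the gap is a description and not a test. Its list was the shortest of the 4, with 9377 peaks against 16788 to 25272. The rule also enters here, since it allows a member to miss 1 SOX2+ library and 162 of the 191 members that did so missed this one.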

How the results depend on the processing

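The number of members moved by over 1.5 times with several limits of the rule, though not with the overlap or the 1 kb distance. Members are here the regions that each setting chose. Their number was 160 when only peaks at or above their list's median score were kept and 152 with equal peak numbers. Of the 260 members of the main rule, only 35 (13.5%) and 21 (8.08%) were kept in these 2 settings, so most regions chosen there were others. The number was 395 within 5 kb of a gene end and 69 with 4 of 4 SOX2+ libraries. Without 1 library it ranged from 69 to 468, the highest without SOX2- replicate 2 and 79, 88 and 69 without SOX2+ replicates 1, 3 and 4. With a SOX2+ library left out, all of the other 3 were required, which is a stricter rule. Members in all 4 MKI67 libraries numbered 66, 45, 210 and 54 under the same 4 settings and 54 to 236 without 1 library. Members in both MKI67- and neither MKI67+ library numbered 5, 10, 7 and 0, and 0 to 42 without 1 library. Members with the reverse pattern numbered 2 with equal peak numbers, 3 within 1 kb, 8 within 5 kb and 0 with 4 of 4 SOX2+ libraries, and 0 to 19 without 1 library. The MKI67 difference in the share listed ranged from -13.0 to 10.4 points without 1 library, and changed sign without SOX2- replicate 2 (3.10), SOX2- replicate 3 (1.02) and MKI67+ replicate 1 (10.4). Member genes called by limma numbered 1 with equal peak numbers (Pld2). They numbered 1 (Col9a2) without SOX2- replicate 1, 2 (Fgf22 and Ccl5) without SOX2+ replicate 2 and 0 without any other SOX2-sorted library. Without an MKI67 library, 1 of the 2 groups compared held only 1 library. That group then had no spread of its own, so no calls are given for those fits. The cause of these shifts was not tested.

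Deviations of same-numbered SOX2 libraries had correlations of -0.0073, 0.406, 0.0791 and -0.180, in replicate order. The same-numbered value was the highest of its SOX2+ library for replicates 2 and 3 and not for replicates 1 and 4. The numbers thus do not show a pairing throughout. The MKI67 correlations were 0.0586 for same-numbered and -0.0586 for other pairs. With 2 libraries a group these values mirror each other, so they cannot speak to pairing. With the replicate number as a block, the MKI67 difference was -1.35 points (exact p = 1.0, pairs of -13.5 and 10.8), and limma called 0 member genes of 47 genes in all, against 33 without the block. Precision is limited by list length and by 2 libraries a group in the MKI67 sort.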
